A study of Mus musculus with 6 samples.

Results

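The gasdermins Gsdma, Gsdmc, Gsdmc2, Gsdmc3, Gsdmc4 and Gsdmd, the inflammatory caspases Casp1 and Casp4 and the adaptor Pycard were followed in mouse colon tumours. These 9 genes were taken by symbol from a table of 53700 gene rows, and all 9 had a row. 8 of them were among the 19127 genes with enough counts to be tested, and Gsdmc was not. RNA was sequenced from bulk tumours in 2 groups of 3 libraries. The APC-KI tumours came from recovered mice given 100 mg/kg doxycycline in the food for 6 weeks, which represses Tcf7l2 throughout the body of these animals. The APC-WT tumours came from cachectic mice, animals with the wasting syndrome of cancer, given the same doxycycline food for 10 days with endogenous Tcf7l2 left in place. Genotype, time on doxycycline and cachexia state therefore cannot be told apart. The labels name no other allele, no age and no sex.

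Inflammasomes are protein platforms that assemble when a sensor meets a microbial product or a sign of cell damage. The adaptor encoded by Pycard, also called ASC, links many sensors to caspase-1, which matures the cytokines interleukin-1 beta and interleukin-18 and cleaves gasdermin D. Mouse caspase-4, long known as caspase-11, cleaves gasdermin D after it binds bacterial lipopolysaccharide. The freed amino-terminal part of a gasdermin forms pores in the plasma membrane, and the lytic death that can follow is called pyroptosis. In the gut these genes act in macrophages and neutrophils and also in the epithelium, where gasdermin D is involved in mucus release and the Gsdmc genes are induced by type 2 cytokines. Gsdma is best known from skin and the upper digestive tract.

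The libraries held 54895823 to 56825956 counts in APC-KI and 51777342 to 63921108 counts in APC-WT tumours. Levels are given as CPM, counts set to a common library size after TMM scaling. Changes are log2 values of APC-KI over APC-WT with their SE, from edgeR's quasi-likelihood test, and a gene was called at a Benjamini-Hochberg adjusted p under 0.05 over all 19127 genes. By that rule 12.5% of tested genes were higher and 7.63% lower in APC-KI tumours, or 20.1% in either direction, and the 3 values of one group lay wholly above or below those of the other for 44.5%. Scaling by library totals only turned 2388 higher and 1459 lower genes into 1978 higher and 2844 lower, with a median log2 change of −0.132 in place of −0.016. The target Tcf7l2 stood at 4.5 to 6.9 CPM in APC-KI and 35.6 to 44.1 CPM in APC-WT tumours. Y-linked transcripts were counted in APC-WT replicates 1 and 2 and had 0 counts in the other 4 libraries. The sex of the animals is not labelled, and Y-linked counts go in part with the group. The members are therefore also given without these 2 libraries, and the pathway genes that were called in that fit are named. Nothing in the labels says that the libraries came from separate animals, so p-values measure the spread between these samples.

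On GRCm38 (GENCODE M21) the caspases are neighbours on chromosome 9, Casp1 at chr9:5298517-5307265 and Casp4 at chr9:5308828-5336783, both on the plus strand. Pycard lies at chr7:127989708-127993867 on the minus strand and Gsdma at chr11:98664351-98677708 on the plus strand. Gsdmd is at chr15:75862327-75867408 on the plus strand. The 4 Gsdmc genes follow each other on the minus strand of chromosome 15, with Gsdmc at chr15:63775968-63808759, Gsdmc2 at chr15:63824346-63845177, Gsdmc3 at chr15:63857724-63878558 and Gsdmc4 at chr15:63891264-63912297.

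The Gsdmc genes are copies of each other, which limits how reads can be assigned. The coding sequences of Gsdmc2 and Gsdmc3 were 97.1% identical, Gsdmc4 was 93.8% identical to each of these, and Gsdmc was 87 to 87.5% identical to the other copies. Of all 50-base windows in the M21 transcripts, 48.5% of those of Gsdmc2, 46.9% of Gsdmc3, 39% of Gsdmc4 and 16.4% of Gsdmc also occurred in a transcript of another gene, against 0% for Gsdmd, Casp1 and Casp4. The first 120 coding bases show why the split of reads among the copies is uncertain. These lines give that stretch in M21, with the 2 columns at which the copies differ in capitals.
Gsdmc2: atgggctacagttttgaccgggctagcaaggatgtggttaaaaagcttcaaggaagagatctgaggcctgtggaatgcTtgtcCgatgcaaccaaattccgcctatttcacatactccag
Gsdmc3: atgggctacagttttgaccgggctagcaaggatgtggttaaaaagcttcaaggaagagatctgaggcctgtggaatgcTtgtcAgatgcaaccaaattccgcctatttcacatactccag
Gsdmc4: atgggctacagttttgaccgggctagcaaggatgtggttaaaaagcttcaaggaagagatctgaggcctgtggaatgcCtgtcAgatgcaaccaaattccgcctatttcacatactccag

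RefSeq promoters on GRCm38.p6 were at hand for 4 of the 9 genes, Pycard, Casp1, Casp4 and Gsdmc3. They are shown because 3 of these genes changed in the same direction, and each stretch is the 250 bases before a RefSeq start. Capitals mark matches to the kappaB motif, which NF-kappaB factors bind.
Pycard, minus strand of chr7:127993868-127994117: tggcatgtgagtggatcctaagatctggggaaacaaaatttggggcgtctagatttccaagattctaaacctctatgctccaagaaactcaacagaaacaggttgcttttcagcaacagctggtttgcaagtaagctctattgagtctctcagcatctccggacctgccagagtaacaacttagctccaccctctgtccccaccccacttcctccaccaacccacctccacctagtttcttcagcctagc
Casp1, plus strand of chr9:5298267-5298516: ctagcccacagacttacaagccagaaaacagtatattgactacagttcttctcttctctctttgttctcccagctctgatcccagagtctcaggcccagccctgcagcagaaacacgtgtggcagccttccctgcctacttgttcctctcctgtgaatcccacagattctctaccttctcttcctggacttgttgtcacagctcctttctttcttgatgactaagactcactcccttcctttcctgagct
Casp4, plus strand of chr9:5308599-5308848: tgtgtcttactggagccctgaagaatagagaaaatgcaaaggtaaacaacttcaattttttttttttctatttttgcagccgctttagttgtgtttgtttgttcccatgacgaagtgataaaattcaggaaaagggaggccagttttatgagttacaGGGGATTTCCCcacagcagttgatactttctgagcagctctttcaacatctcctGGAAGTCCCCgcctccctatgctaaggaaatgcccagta
Gsdmc3, minus strand of chr15:63878559-63878808: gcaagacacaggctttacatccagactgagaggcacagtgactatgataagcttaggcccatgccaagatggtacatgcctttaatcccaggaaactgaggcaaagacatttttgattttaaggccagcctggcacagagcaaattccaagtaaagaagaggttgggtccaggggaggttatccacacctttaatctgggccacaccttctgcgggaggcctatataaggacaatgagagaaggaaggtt

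Windows of 300 bases, 250 before and 50 after the start, were searched on both strands for 5 motifs. Casp4 held kappaB matches, an overlapping pair that begins 93 and 92 bases before the first of its RefSeq starts and a further match 39 bases before it. The kappaB motif occurred in 8.46% of all 32851 promoters of that length. None of the 4 promoters held the interferon motif GAAANNGAAA (3.44% of all promoters), the STAT motifs TTCNNNGAA (8.3%) and TTCNNNNGAA (6.95%) or the TCF/LEF motif ATCAAAG (3.73%). A match describes letters in this window only.

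Among the 8 members tested, 4 rose and 1 fell in APC-KI tumours, that is 50% and 12.5% of them beside 12.5% and 7.63% of all genes. The 4 that rose were the adaptor Pycard, both caspases and Gsdmd, their shared substrate. Gsdma fell, and Gsdmc2, Gsdmc3 and Gsdmc4 did not pass. The median log2 change of the 8 was 0.66, beside −0.016 over all genes tested. In bulk tumours more cells of a type and more RNA per cell cannot be told apart, and markers of several cell types moved as well.

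**Figure D1:**
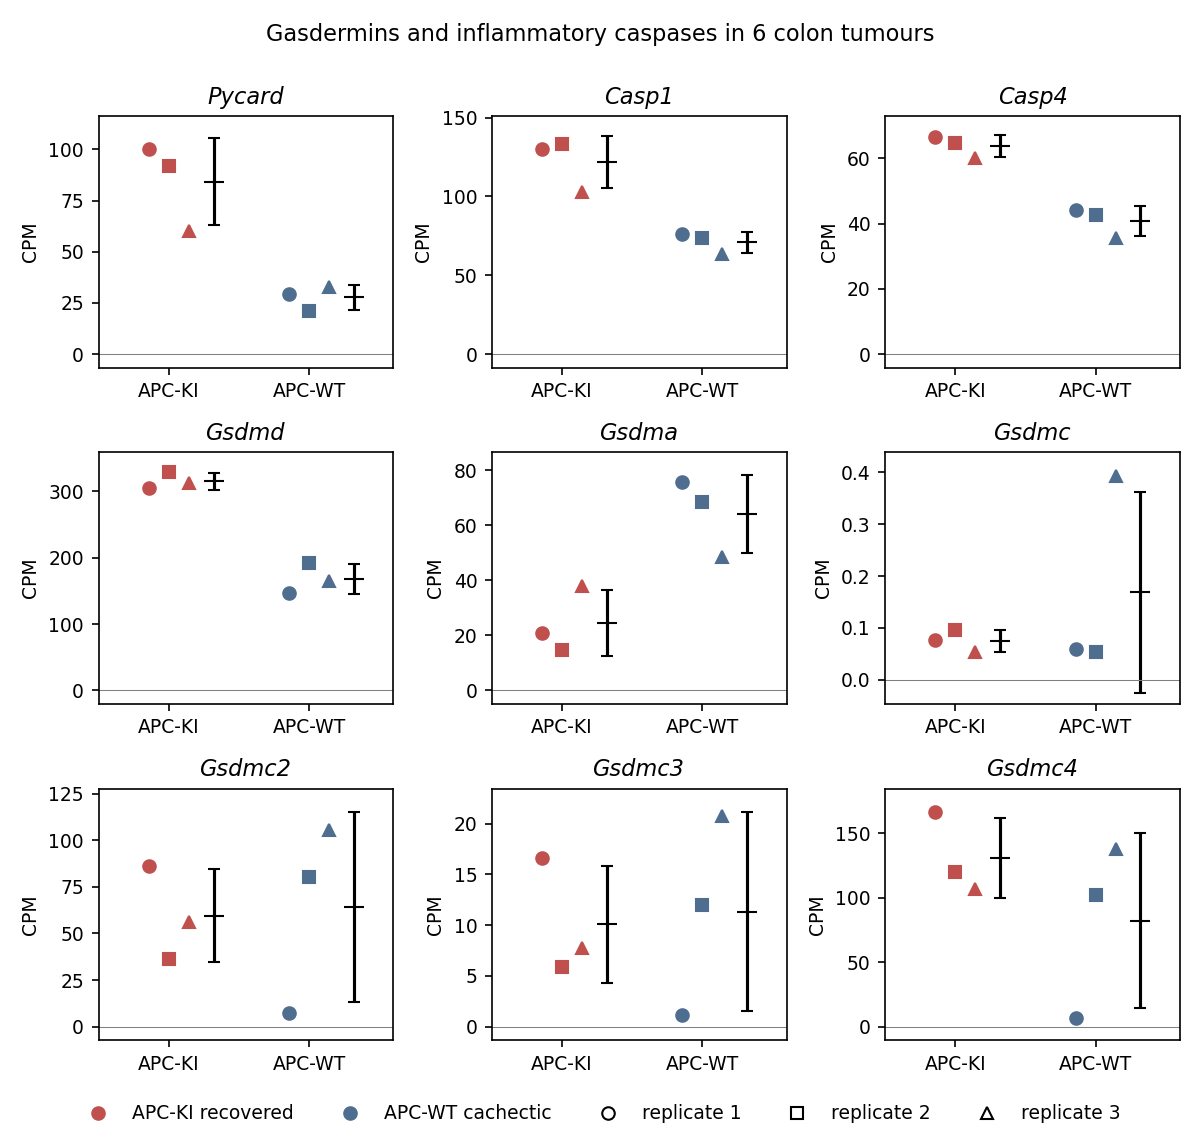
CPM of each of the 9 genes in every library (vertical axes, linear, one scale per panel), with APC-KI tumours in red and APC-WT tumours in blue, symbols for replicates, and bars for the mean ± SD of 3 libraries. The groups are apart for Pycard, Casp1, Casp4 and Gsdmd, which are higher in APC-KI, and for Gsdma, which is lower, while APC-WT replicate 1 lies far below the other libraries for Gsdmc2, Gsdmc3 and Gsdmc4.

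Pycard (ENSMUSG00000030793) had the largest change of the 4 that rose. It stood at 100.2, 92.1 and 60.1 CPM in APC-KI tumours, against 29.2, 21.2 and 32.9 CPM in APC-WT tumours. The lowest APC-KI library, replicate 3, was well above the highest APC-WT library. The means were 84.1 ± 21.2 CPM in APC-KI and 27.8 ± 5.97 CPM in APC-WT tumours (SD, n = 3 each). Expression was 3.03-fold higher in APC-KI, with a log2 change of 1.60 ± 0.24 (edgeR adjusted p = 0.00948). Pycard exons overlap Gm45205 on the opposite strand in M21, and 11.8% of its 50-base windows occurred in another gene's transcript. The kit marks strand, but the strand setting of the counter is not given in the sources used here.

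Casp1 (ENSMUSG00000025888), the caspase that Pycard recruits, was 1.72-fold higher in APC-KI tumours. Its levels were 130, 133 and 103 CPM in APC-KI, against 75.9, 73.8 and 63.4 CPM in APC-WT tumours. Replicate 3 was the lowest library of both groups, and the groups did not overlap. The means were 122 ± 16.5 CPM in APC-KI and 71.0 ± 6.71 CPM in APC-WT tumours (SD, n = 3 each), a log2 change of 0.78 ± 0.12 (edgeR adjusted p = 0.0101).

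Casp4 (ENSMUSG00000033538), the sensor of intracellular lipopolysaccharide, had the smallest change of the 4, at 1.56-fold. It stood at 66.7, 64.7 and 60.0 CPM in APC-KI, against 44.3, 42.7 and 35.7 CPM in APC-WT tumours. The libraries of each group lay close together and the groups did not overlap. The means were 63.8 ± 3.43 CPM in APC-KI and 40.9 ± 4.56 CPM in APC-WT tumours (SD, n = 3 each), a log2 change of 0.64 ± 0.10 (edgeR adjusted p = 0.0104). Casp1 and Casp4 shared no 50-base window with any other gene and were 65.4% identical in their coding sequence, so their counts are separate measurements.

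Gsdmd (ENSMUSG00000022575), the pore protein that both caspases cleave, was 1.88-fold higher in APC-KI tumours. Its levels were 304, 329 and 312 CPM in APC-KI, against 147, 192 and 164 CPM in APC-WT tumours. The 3 APC-KI libraries were nearly equal, and the lowest was far above the highest APC-WT library. The means were 315 ± 12.6 CPM in APC-KI and 168 ± 22.6 CPM in APC-WT tumours (SD, n = 3 each), a log2 change of 0.91 ± 0.11 (edgeR adjusted p = 0.00595).

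The 4 increases were called again when any 1 library was left out, with every other scaling or filter and with DESeq2 or limma-voom. A fit on the 4 libraries with 0 Y-linked counts holds a single APC-WT library, whose spread must be borrowed from APC-KI. In it Gsdmd passed (0.94, adjusted p = 0.0352), while Casp1 (0.94, adjusted p = 0.0733), Casp4 (0.83, adjusted p = 0.0531) and Pycard (1.35, adjusted p = 0.133) did not. For each of the 5 called members an exact two-sided permutation test over libraries gave p = 0.1, the smallest that 3 against 3 allows.

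Gsdma (ENSMUSG00000017204) went the other way and was 2.62-fold lower in APC-KI tumours. It stood at 21.0, 14.5 and 38.0 CPM in APC-KI, against 75.6, 68.5 and 48.4 CPM in APC-WT tumours. The groups did not overlap, but APC-KI replicate 3 and APC-WT replicate 3 were near each other. The means were 24.5 ± 12.1 CPM in APC-KI and 64.1 ± 14.1 CPM in APC-WT tumours (SD, n = 3 each), a log2 change of −1.39 ± 0.36 (edgeR adjusted p = 0.0427). The call was lost when APC-KI replicate 1 (adjusted p = 0.132) or 2 (0.0855) was left out, without APC-WT replicate 1 (0.11), 2 (0.114) or 3 (0.0553), with no filter on low counts (0.13) and without the 2 libraries with Y-linked counts (−0.98, adjusted p = 0.396) or with a covariate for them (0.311). The direction was the same in all 17 alternatives, from −1.87 to −0.98, and 8 of them passed. Of its 50-base windows 8.26% were shared with Gsdma2 or Gsdma3.

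Squamous markers, genes of the stratified epithelium in which Gsdma is best known, are given beside it. Of 11 listed 8 were tested, and the one nearest to the threshold was the junction protein Dsg3 (log2 change −1.83, edgeR adjusted p = 0.0671), which passed in 2 of 17 alternatives. Their summed level was 32.7 to 112 CPM in APC-KI and 27.9 to 142 CPM in APC-WT tumours. Dsg3 stood at 8.05, 5.34 and 14.2 CPM in APC-KI and at 17.9, 59.6 and 20.4 CPM in APC-WT tumours, without overlap, and its highest library, APC-WT replicate 2, was not that of Gsdma. Krt14, a keratin of basal squamous cells, stood at 23.5, 11.6 and 45.4 CPM in APC-KI and at 4.66, 36.2 and 61.7 CPM in APC-WT tumours, with overlap. The markers thus differed among themselves. The library with the most Gsdma, APC-WT replicate 1, was the lowest for Krt14, Krt13, Krt6a and Trp63, but not for the other markers listed. It was the highest for Lor at 0.345 CPM, a gene with too few counts to be tested. The part of squamous cells in the Gsdma levels was not tested.

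Of the 4 other gasdermin family genes, Gsdma3 and Pjvk had too few counts to be tested. Gsdma2, a close copy of Gsdma, stood at 0.749, 0.593 and 1.30 CPM in APC-KI and at 2.73, 0.950 and 0.655 CPM in APC-WT tumours, and its log2 change of −0.72 ± 0.59 did not pass (edgeR adjusted p = 0.406). Gsdme, which encodes a further pore protein, stood at 5.40, 4.28 and 3.29 CPM in APC-KI and at 2.74, 2.95 and 4.60 CPM in APC-WT tumours. Its log2 change was 0.33 ± 0.29 (edgeR adjusted p = 0.433). The groups overlapped for both genes.

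The Gsdmc genes differed more among the APC-WT tumours than between the groups. Gsdmc4 (ENSMUSG00000055748) stood at 166, 120 and 107 CPM in APC-KI, against 6.30, 102 and 138 CPM in APC-WT tumours. Gsdmc2 (ENSMUSG00000056293) stood at 86.3, 36.3 and 56.2 CPM in APC-KI, against 7.42, 80.0 and 105 CPM in APC-WT tumours. Gsdmc3 (ENSMUSG00000055827) stood at 16.7, 5.91 and 7.70 CPM in APC-KI, against 1.18, 12.0 and 20.8 CPM in APC-WT tumours. In all 3 genes APC-WT replicate 1 was the lowest of the 6 libraries, and the groups overlapped. The other APC-WT libraries lay within or above the APC-KI range for Gsdmc2 and Gsdmc3, and for Gsdmc4 one of them was just below it. The means were 131 ± 31.2 CPM in APC-KI and 82.2 ± 68.1 CPM in APC-WT for Gsdmc4, 59.6 ± 25.2 CPM in APC-KI and 64.2 ± 50.8 CPM in APC-WT for Gsdmc2, and 10.1 ± 5.76 CPM in APC-KI and 11.3 ± 9.81 CPM in APC-WT for Gsdmc3 (SD, n = 3 each). The log2 changes were 0.67 ± 0.89, −0.11 ± 0.83 and −0.16 ± 0.90, and edgeR's adjusted p were 0.613, 0.937 and 0.908. Gsdmc itself (ENSMUSG00000079025) had 4, 5 and 3 counts in APC-KI and 4, 3 and 21 counts in APC-WT tumours, too few to test.

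Because reads can be split among the copies, the 4 genes were also summed. The sum stood at 269, 162 and 171 CPM in APC-KI, against 15.0, 194 and 264 CPM in APC-WT tumours. Its log2 change was 0.35 ± 0.85 (edgeR adjusted p = 0.79). Without APC-WT replicate 1 the change was −0.19 (adjusted p = 0.64), so the direction rests on that library.

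Shares of the sum do not depend on scaling between libraries, and those of Gsdmc4 and Gsdmc2 lay apart in the groups. Gsdmc4 took 61.7%, 74.0% and 62.5% of the summed counts in APC-KI, against 42.1%, 52.6% and 52.2% in APC-WT tumours. Gsdmc2 took 32.1%, 22.3% and 32.9% in APC-KI, against 49.6%, 41.2% and 39.8% in APC-WT tumours. The groups did not overlap for either share. Gsdmc3 took 6.19%, 3.64% and 4.51% in APC-KI, against 7.92%, 6.19% and 7.85% in APC-WT tumours, so for its share the groups met. Gsdmc took 0.4% or less in every library, with overlap. The mean share of Gsdmc4 was 17.1 percentage points higher in APC-KI and that of Gsdmc2 changed by −14.4 points. Exact two-sided permutation tests gave p = 0.1 for the shares of Gsdmc4 and Gsdmc2, the smallest 3 against 3 allows. After adjustment over the 4 shares both were 0.2, so neither passes. The smallest sum, APC-WT replicate 1 with 998 counts, had the lowest share of Gsdmc4, and without it the differences were 13.7 and −11.4 points.

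Type 2 cytokines and their epithelial targets were listed beside the Gsdmc genes, since interleukin-4 and interleukin-13 are known to induce Gsdmc2 to Gsdmc4 in mouse gut epithelium. Of 12 genes listed 8 could be tested and 2 rose, beside 12.5% of all genes. The 2 were the receptor chain Il13ra1 (0.93 ± 0.16, adjusted p = 0.012) and the tuft cell marker Dclk1 (1.55 ± 0.28, adjusted p = 0.0155, edgeR). Pou2f3, another tuft cell gene of the list, was below 0.5 CPM in every library and did not pass (0.20, edgeR adjusted p = 0.751). The receptor chain Il4ra (0.59, adjusted p = 0.0781) and the type 2 transcription factor Gata3 (0.66, adjusted p = 0.0861) did not pass in edgeR. Il13 had 2, 0 and 0 counts in APC-KI and 2, 14 and 17 counts in APC-WT tumours, and Il25 had 0 counts in all 6 libraries. Clca1, a secreted goblet cell protein raised by interleukin-13, stood at 380, 488 and 342 CPM in APC-KI and at 32.4, 733 and 476 CPM in APC-WT tumours. Retnlb, a further epithelial gene of the list, stood at 81.0, 52.6 and 18.0 CPM in APC-KI and at 20.9, 24.5 and 60.1 CPM in APC-WT tumours. Its lowest library was APC-KI replicate 3. APC-WT replicate 1 was thus the lowest library for Clca1 as well as for Gsdmc2, Gsdmc3 and Gsdmc4, but not for Retnlb. The median log2 change of the 8 genes was 0.56.

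The summed mast cell markers of the APC-WT tumours were also lowest in replicate 1. All 8 mast cell markers tested were lower in APC-KI tumours, beside 7.63% of all genes. Their median log2 change was −5.54, with summed levels of 19.1 to 37.4 CPM in APC-KI and 155 to 894 CPM in APC-WT tumours. None was at 0 in all libraries. Mcpt1, a mast cell protease of mucosa, stood at 3.03, 6.96 and 2.35 CPM in APC-KI and at 61.9, 443 and 489 CPM in APC-WT tumours. The Gsdmc sum was 162 CPM or more in APC-KI tumours while mast cell markers were lowest there, and the part of these cells in the Gsdmc levels was not tested.

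**Figure D2:**
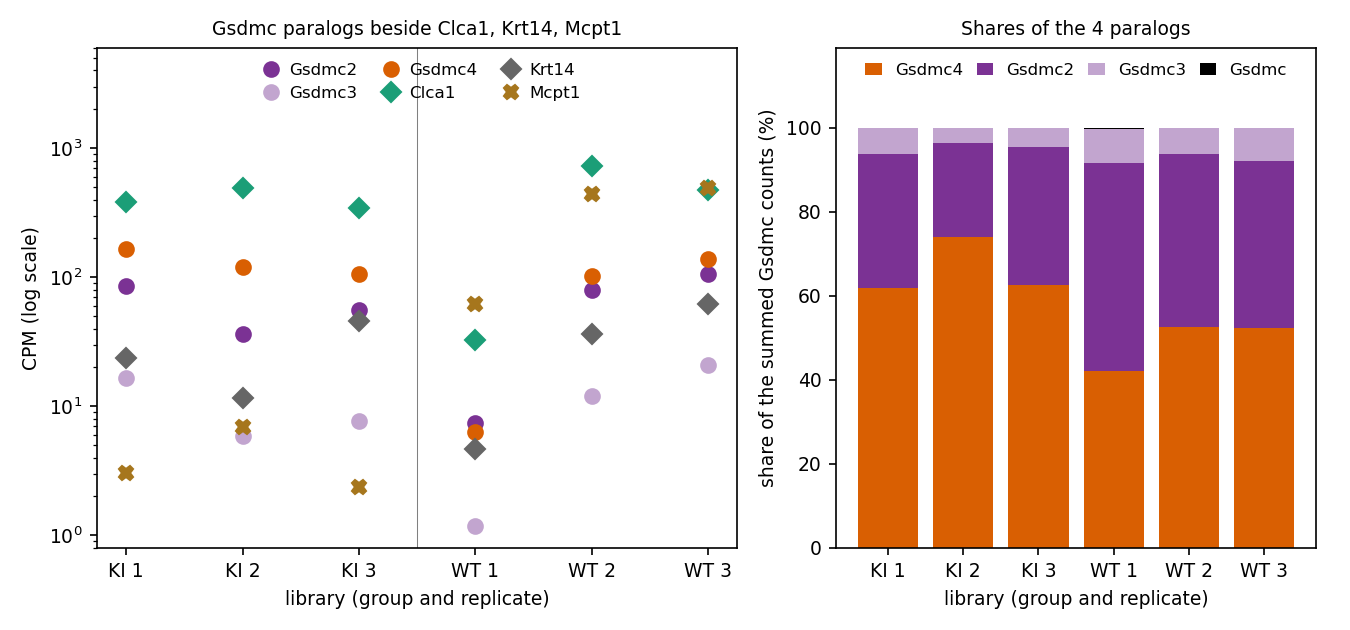
Left, CPM (log scale) of Gsdmc2, Gsdmc3, Gsdmc4, Clca1, Krt14 and Mcpt1 in each library; right, share of each copy in the summed counts of the 4 Gsdmc genes (%), for APC-KI replicates 1 to 3 and then APC-WT replicates 1 to 3. WT 1 is low for the Gsdmc genes, Clca1 and Krt14, and the share of Gsdmc4 is above 60% in each APC-KI library and below 53% in each APC-WT library.

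Levels of different genes can be compared only per length, here as CPM per kilobase of the principal M21 transcript. In APC-KI tumours Gsdmd was highest at 176 ± 7.02 CPM per kilobase, followed by Casp1 at 81.5 ± 11.0, Gsdmc4 at 62.8 ± 15.0, Casp4 at 44.5 ± 2.39, Gsdmc2 at 27.6 ± 11.6, Pycard at 22.1 ± 5.58, Gsdma at 8.99 ± 4.45 and Gsdmc3 at 4.63 ± 2.64 (SD, n = 3). In APC-WT tumours the order was Gsdmd at 93.5 ± 12.6 CPM per kilobase, Casp1 at 47.5 ± 4.48, Gsdmc4 at 39.4 ± 32.7, Gsdmc2 at 29.7 ± 23.5, Casp4 at 28.5 ± 3.18, Gsdma at 23.5 ± 5.18, Pycard at 7.31 ± 1.57 and Gsdmc3 at 5.20 ± 4.50 (SD, n = 3). Gsdmc was last in both, at 0.031 CPM per kilobase in APC-KI and 0.070 in APC-WT tumours. Gsdmd was above every other member in each of the 6 libraries. Among neighbours in the APC-KI order the libraries of Casp1 and Gsdmc4, of Gsdmc2 and Pycard and of Gsdma and Gsdmc3 overlapped. In the APC-WT order those from Casp1 through Gsdmc4, Gsdmc2 and Casp4 to Gsdma overlapped pair by pair, as did Pycard and Gsdmc3. The M21 transcript of Pycard is 3800 bases long with a coding part of 582 bases, so its level per length depends on the transcript model. The places of the Gsdmc genes in both orders depend on how the counter treated reads shared among the copies, which is not given.

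Genes with the most similar profile were sought among 12725 genes, by the root mean square difference of centred log2 CPM over the 6 libraries. For Casp1 these were Ms4a8a (0.038), which is also among the surface colonocyte markers, Slc35c1 (0.04) and C2cd2l (0.051), and for Casp4 they were Txndc11 (0.056), Vamp4 (0.061) and Myo1a (0.063). Gsdmd was nearest to Pag1 (0.071), to Nod2 (0.077), a cytosolic receptor for bacterial cell wall fragments, and to Mctp1 (0.078). Among the nearest to Pycard were Cdhr2 (0.133), a cadherin of the microvillus brush border, and Rflnb (0.158). Gsdma was nearest to Slc18a1 (0.109), Mapk15 (0.146) and Rbm20 (0.155).

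The Gsdmc genes had no such close partner outside their own cluster. Gsdmc2 and Gsdmc3, between which reads may be shared, were each other's nearest (0.185), and Krt14 stood at 0.551 from Gsdmc2. Gsdmc4 was nearest to Hao2 (0.517), Clca1 (0.521) and Mgl2 (0.532). These distances are descriptions over 6 libraries of 2 groups.

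Upstream of the caspases, many inflammasome sensors rose. The 15 genes tested were sensors and the kinase Nek7. Of these, 9 were higher in APC-KI tumours, that is 60% beside 12.5% of all genes, and the other 6 did not pass. Their median log2 change was 1.02, beside −0.016 over all genes, and their summed level was 1016 to 1198 CPM in APC-KI and 533 to 598 CPM in APC-WT tumours. The list, like the others named here, describes these libraries and was not tested as a set. Over all pathway lists 39 genes were higher, and in the fit on the 4 libraries with 0 Y-linked counts 4 were. These were Naip2 (1.19, adjusted p = 0.035), Naip5 (1.06, adjusted p = 0.0384), Cd14 (0.77, adjusted p = 0.0463) and Gbp2 (2.05, adjusted p = 0.0352, edgeR), and of the lower genes Gzmb was called in it (−1.62, adjusted p = 0.0393). The other pathway genes named here as higher or lower did not pass in that fit.

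Nlrp6, a sensor of the gut epithelium, had the largest change of the 15. It stood at 97.6, 95.5 and 48.2 CPM in APC-KI, against 11.9, 21.5 and 24.0 CPM in APC-WT tumours. All APC-KI libraries were above all APC-WT libraries, with a log2 change of 2.07 ± 0.36 (edgeR adjusted p = 0.0148). Nlrp9b, known from intestinal defence against rotavirus in mice, rose by 1.14 (adjusted p = 0.026), and the protease-sensing Nlrp1b and Nlrp1a rose by 1.02 (adjusted p = 0.0151) and 1.16 (adjusted p = 0.0492, edgeR).

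The Naip genes encode receptors that bind bacterial flagellin or secretion system proteins and then engage Nlrc4. Naip1 stood at 216, 204 and 148 CPM in APC-KI, against 63.0, 80.6 and 67.8 CPM in APC-WT tumours. The log2 changes were 1.43 for Naip1 (adjusted p = 0.00557), 1.32 for Naip2 (adjusted p = 0.0034), 0.96 for Naip5 (adjusted p = 0.00357) and 1.32 for Naip6 (adjusted p = 0.00542, edgeR). These 4 genes are close relatives, and reads may be shared among them. Nlrc4 did not pass (0.40, adjusted p = 0.0667), with 102, 97.2 and 80.5 CPM in APC-KI and 61.0, 74.0 and 77.4 CPM in APC-WT tumours.

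Nek7, a kinase that Nlrp3 needs for activation, rose by 0.67 on the log2 scale (adjusted p = 0.00493), while Nlrp3 itself did not pass (0.76, adjusted p = 0.0978, edgeR). Aim2, a sensor of cytosolic DNA, was nearly level at 110, 105 and 115 CPM in APC-KI and 111, 114 and 114 CPM in APC-WT tumours. Its log2 change was −0.04 ± 0.06 (edgeR adjusted p = 0.676).

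Downstream, the cytokines that caspase-1 matures did not pass the test. Il1b stood at 124, 123 and 64.8 CPM in APC-KI and 40.4, 60.6 and 83.1 CPM in APC-WT tumours, and its log2 change of 0.76 ± 0.34 did not pass (edgeR adjusted p = 0.149). Il18 stood at 64.9, 49.5 and 52.0 CPM in APC-KI and 45.8, 49.0 and 51.8 CPM in APC-WT tumours (0.18 ± 0.12, edgeR adjusted p = 0.296). The groups overlapped for both. Il1a, which needs no caspase-1 cut to be active, rose by 1.14 ± 0.21 (edgeR adjusted p = 0.0164), at 30.3, 29.6 and 21.4 CPM in APC-KI and 10.1, 11.2 and 15.7 CPM in APC-WT tumours. Ninj1, which ruptures the membrane of dying cells after gasdermin pores open, had a log2 change of −0.07 (edgeR adjusted p = 0.789). In all, 1 of the 6 cytokines and lysis genes passed, beside 20.1% of all genes called in either direction.

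Receptors and antagonists of these cytokines rose in 4 of 7 cases (beside 12.5% of all genes), with a median log2 change of 0.64. They were the receptor Il1r1 (0.57, adjusted p = 0.00572), the receptor chain Il18rap (0.96, adjusted p = 0.00857), the receptor antagonist Il1rn (0.74, adjusted p = 0.0172) and the interleukin-18 binding protein Il18bp (0.76, adjusted p = 0.0426, edgeR). The set thus holds receptors as well as molecules that block the cytokines.

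Of 8 other caspases tested, 3 rose and 1 fell, beside 12.5% and 7.63% of all genes, with a median log2 change of 0.35. Among those that rose was Casp14, known from skin (log2 change 1.38, edgeR adjusted p = 0.0414). Casp6 fell by 0.74 on the log2 scale (edgeR adjusted p = 0.0129), at 58.2, 53.6 and 67.0 CPM in APC-KI and 115, 94.9 and 88.9 CPM in APC-WT tumours. The other 4 caspases tested did not pass, among them Casp8, which can also cleave gasdermin D (0.39, edgeR adjusted p = 0.105).

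Proteases other than caspases that are known to cut gasdermins were at low levels. Gzma and Gzmb, granzymes of cytotoxic lymphocytes, fell by 1.77 (adjusted p = 0.0385) and 1.26 (adjusted p = 0.0361) on the log2 scale in edgeR. Gzmb stood at 5.09, 5.09 and 4.27 CPM in APC-KI and 6.45, 13.4 and 14.8 CPM in APC-WT tumours. T and NK cell markers, by contrast, were higher in APC-KI tumours for 6 of 9 tested, beside 12.5% of all genes. The 6 were T cell genes such as Cd4 and Trac. The NK cell marker Ncr1 did not pass (0.36, edgeR adjusted p = 0.718), and Klrb1c had too few counts to be tested. The summed levels of the T and NK list were 43.4 to 68.9 CPM in APC-KI and 22.0 to 29.6 CPM in APC-WT tumours. The neutrophil proteases Elane and Ctsg had too few counts to be tested, and Prtn3 did not pass (0.98, edgeR adjusted p = 0.142).

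**Figure D3:**
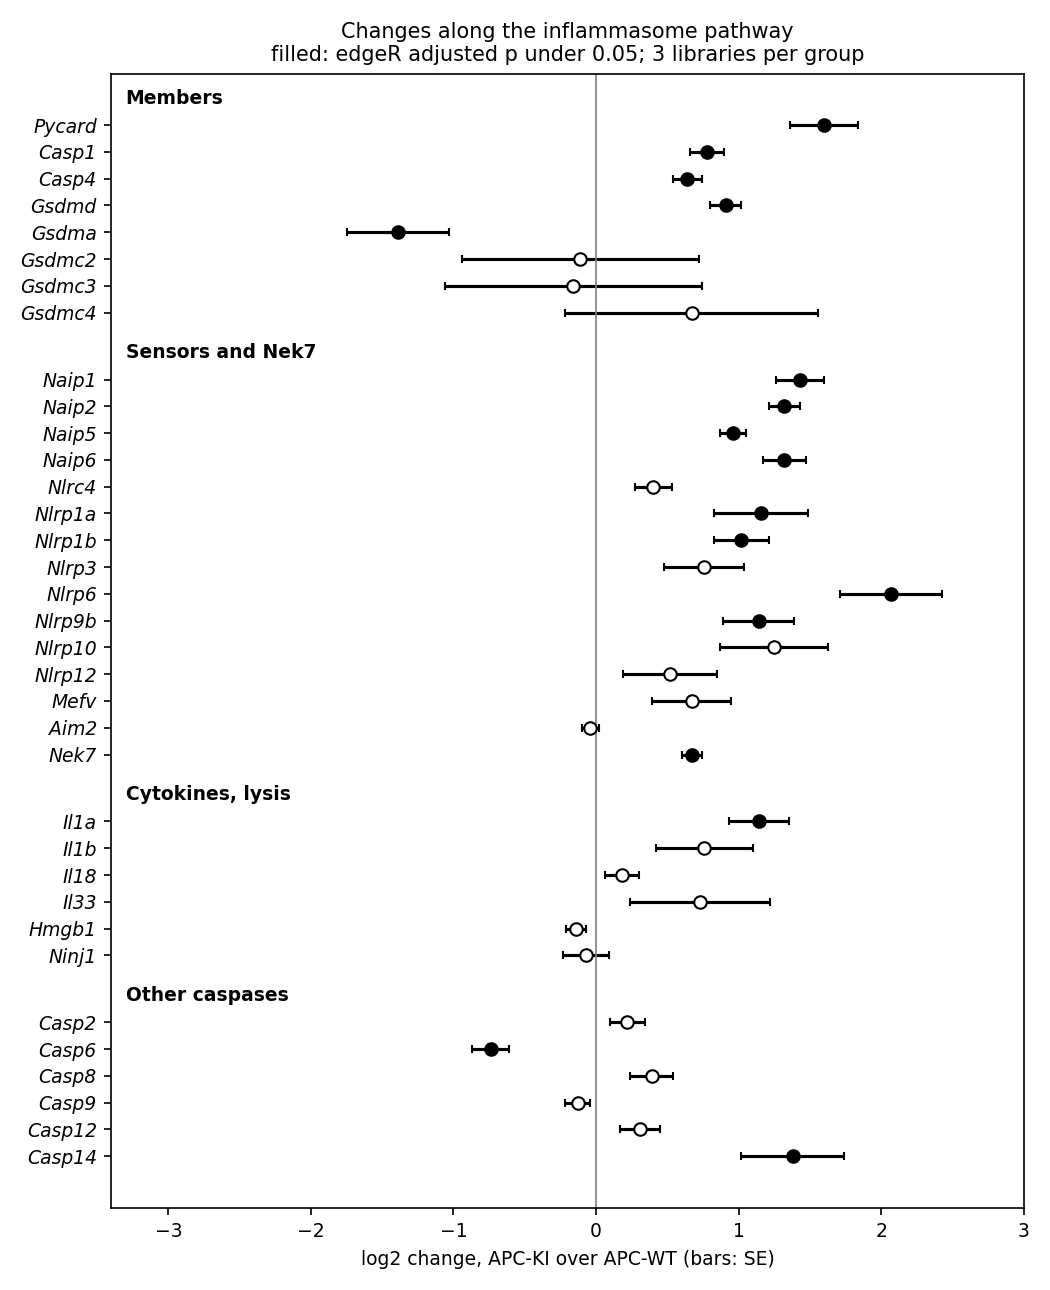
Log2 change of APC-KI over APC-WT with SE (horizontal axis) for the tested members, inflammasome sensors with Nek7, cytokines and lysis genes and some other caspases, from 3 libraries per group. Filled points passed edgeR's adjusted p of 0.05. Pycard, Casp1, Casp4, Gsdmd and 9 of the 15 genes shown as sensors with Nek7 are filled points to the right of 0. Aim2, Ninj1 and Hmgb1 are open points close to 0.

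Genes of the interferon and lipopolysaccharide routes, not all of them inducers of the members, were also counted. Casp4, Casp1 and Gsdmd are induced by interferons, and Casp4 by lipopolysaccharide. Of 17 genes of these 2 routes, 12 rose in APC-KI tumours, beside 12.5% of all genes, and the other 5 did not pass. The median log2 change of the 17 was 0.91. Irf1, an interferon response factor, stood at 304, 355 and 240 CPM in APC-KI, against 122, 166 and 175 CPM in APC-WT tumours (0.96, edgeR adjusted p = 0.0186). Irf2, which is known to maintain Gsdmd transcription, stood at 70.6, 69.6 and 77.7 CPM in APC-KI, against 54.2, 60.7 and 55.9 CPM in APC-WT tumours (0.35, edgeR adjusted p = 0.0268). Cd14, a surface co-receptor for lipopolysaccharide, rose by 0.91 (adjusted p = 0.00388) and the receptor chain Ifngr1 by 0.89 (adjusted p = 0.00532, edgeR). Gbp2 and Gbp5, guanylate-binding proteins that bring lipopolysaccharide to mouse caspase-4, rose by 2.57 (adjusted p = 0.00622) and 2.16 (adjusted p = 0.00769, edgeR).

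The members were therefore set beside cell type markers, whose counts are to be read against the 12.5% of all genes that were higher. Of 10 pan-epithelial markers 5 were higher in APC-KI tumours, with a median log2 change of 0.44 and summed levels of 10083 to 12108 CPM in APC-KI and 7981 to 9155 CPM in APC-WT tumours. Of 12 surface colonocyte markers 7 were higher, with a median of 1.26 and sums of 8354 to 9832 CPM in APC-KI and 2531 to 2759 CPM in APC-WT tumours. Of 12 macrophage markers 2 were higher, near the 12.5% of all genes. Their sums were 897 to 1532 CPM in APC-KI and 711 to 1223 CPM in APC-WT tumours. Of 9 neutrophil markers 4 were higher, with sums of 1002 to 1492 CPM in APC-KI and 682 to 790 CPM in APC-WT tumours. B and plasma cell markers were higher for 5 of 7 (3505 to 9634 CPM in APC-KI and 563 to 873 CPM in APC-WT) and smooth muscle markers for 8 of 8 (1000 to 1619 CPM in APC-KI and 188 to 471 CPM in APC-WT). No marker of these lists was at 0 in all libraries, and their part in the members' changes was not tested.

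Counts of a member per 1000 marker counts show how far it moved with each list. Pycard held 5.96 to 8.27 counts per 1000 pan-epithelial counts in APC-KI and 2.53 to 3.66 in APC-WT tumours, a 2.27-fold ratio of the means. Gsdmd held 25.1 to 30.9 in APC-KI and 18.0 to 22.9 in APC-WT tumours (1.43-fold), and Casp1 10.2 to 11.5 in APC-KI and 6.92 to 9.51 in APC-WT tumours (1.29-fold). For Casp4 the groups overlapped (1.17-fold). Where groups did not overlap, the exact two-sided permutation p was 0.1, the smallest possible. With the full lists 36 such ratios were computed, and each was computed again without the most abundant gene of its list.

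Set beside surface colonocyte markers, Gsdmd, Casp1 and Casp4 were lower in APC-KI, but this sum is mostly 1 gene. Lypd8 made up 66.4 to 79.6% of it in APC-KI and 60.6 to 63.5% in APC-WT tumours, and rose by 1.99 on the log2 scale where the list's median was 1.26. Per 1000 of these counts, Gsdmd held 31.0 to 38.1 counts in APC-KI and 58.0 to 69.4 in APC-WT tumours (0.56-fold), Casp1 12.3 to 15.4 in APC-KI and 24.7 to 30.0 in APC-WT tumours (0.50-fold), and Casp4 6.78 to 7.50 in APC-KI and 13.9 to 17.5 in APC-WT tumours (0.46-fold). Pycard overlapped (0.88-fold). Without Lypd8 in the sum, an alternative chosen after seeing the data, Gsdmd overlapped (0.80-fold), Casp1 (0.70-fold) and Casp4 (0.65-fold) remained lower in APC-KI without overlap, and Pycard overlapped at 1.21-fold. Per 1000 macrophage counts Pycard was 2.5-fold higher in APC-KI without overlap, while Gsdmd (1.55-fold), Casp1 (1.38-fold) and Casp4 (1.26-fold) overlapped. Per 1000 neutrophil counts Pycard was 1.73-fold higher without overlap, and Gsdmd (1.09-fold), Casp1 (0.98-fold) and Casp4 (0.90-fold) overlapped. Leaving out the most abundant marker of each other list also ended some overlaps, for Gsdmd without the neutrophil marker Cd177 (1.29-fold) and for Casp4 without the epithelial keratin Krt8 (1.19-fold). Gsdma was lower in APC-KI against pan-epithelial (0.29-fold), surface colonocyte (0.11-fold) and neutrophil (0.23-fold) markers without overlap, and overlapped against macrophage markers (0.33-fold), though not without their most abundant gene, Lyz2 (0.29-fold).

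**Figure D4:**
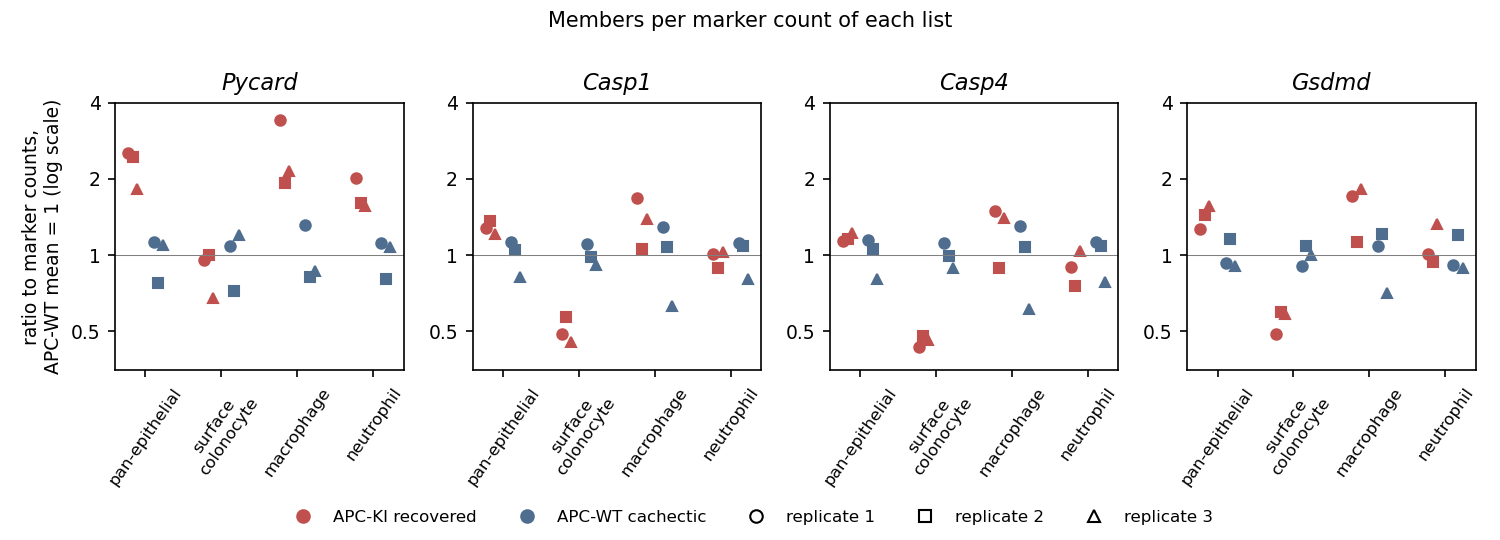
Counts of Pycard, Casp1, Casp4 and Gsdmd per marker count of 4 cell type lists in each library, divided by the APC-WT mean (log scale), with APC-KI in red left of APC-WT in blue. All markers of each list are summed, and Lypd8 makes up most of the surface colonocyte sum. Against that sum Casp1, Casp4 and Gsdmd lie below 1 in APC-KI tumours, and against macrophage and neutrophil markers Pycard alone of the 4 is clear of the APC-WT libraries.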

How the data were processed

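RNA-seq libraries of 6 mouse colon tumours were made with a stranded, poly(A)-selecting TruSeq kit, per the labels' protocols. The submitters' processing notes name STAR, cutadapt 2.5, Trim Galore 0.6.4 and DESeq2 1.37.6 and the builds GRCm38 and mm10. Which counter, strand setting and annotation were used is not given in the sources used here. Values in the authors' deposited table were raw counts per Ensembl gene. GENCODE M21 gave symbols, loci and lengths; it named 52093 of 53700 identifiers, but only 35 identifier versions were equal, so the counts rest on another release.

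Counts were filtered with filterByExpr, scaled by TMM and tested with edgeR 4.0.16 in R 4.3.3 (robust glmQLFit and glmQLFTest, group as sole term, 3 libraries per group). The SE is the log2 change divided by the square root of F. Replicates differed by chi-square values of 39.5 to 113.6 per gene, so each library counted separately. Promoters came from RefSeq (GRCm38.p6). Coding sequences were aligned in pairs with Biopython 1.88 for the identities, and MAFFT 7.526 aligned Gsdmc2, Gsdmc3 and Gsdmc4 for the stretch shown. Steps were tested on simulated data.

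Members and lists were chosen with earlier results of these data known. Named genes are all members, other gasdermins, every sensor, caspase-1 substrate and other caspase past the threshold, and up to 4 genes with the smallest p from each other list. For marker lists mostly counts and sums are given, with values of single genes such as Dsg3, Krt13 and Krt6a. Also named are the 3 nearest profiles per member among genes whose mean log2 CPM was 1 or more (prior count 2). Genes named outside this rule, such as Aim2, Nlrp3, Nlrc4, Il1b, Il18, Ninj1, Casp8, Irf1, Irf2, Clca1, Retnlb, Pou2f3, Il13, Il25, Krt14, Trp63, Lor, Ncr1, Klrb1c, Tgfbr2, Lypd8, Lyz2, Cd177, Krt8 and Mcpt1, were chosen after their values were seen. A few genes chosen this way are not reported here. Alternatives were RLE, upper-quartile and total-count scaling, no filter, CPM above 1 in at least 3 libraries, DESeq2 1.42.0, limma-voom (limma 3.58.1), a replicate block, removal of the 10 most abundant and mitochondrial genes, each library left out, and 2 fits for Y-linked counts. Marker ratios without the most abundant gene of each list were added after seeing the data.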

Additional observations from a re-analysis of the deposited data

How the results depend on the processing

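The 4 higher members were called in 15 of 17 alternatives. With libraries lacking Y-linked counts alone 1 member was higher (Gsdmd) and 0 lower, and a covariate for Y-linked counts left 1 higher (Casp4) and 0 lower. With that covariate the log2 changes and adjusted p were 0.94 and 0.0508 for Gsdmd, 0.95 and 0.0503 for Casp1 and 1.36 and 0.109 for Pycard. Gsdma, the 1 lower member, was lost with no filter (0), with the replicate block (0) and in 5 of 6 fits without a library (0 to 1), and passed in DESeq2 (adjusted p = 0.000666). Replicate numbers did not pair the libraries (correlations 0.03, −0.07 and −0.18), and the block kept 4 higher members. The causes were not tested. Some pathway calls held in few of the 17 alternatives. Mlkl and Chmp3 passed in 6, Nlrp1a and Il18bp in 7, and Casp14, Gzma and Zbp1 in 8. Over the pathway lists, 39 genes were higher and 4 lower, against 2 lower with voom, 21 and 1 with the block, 4 and 1 without Y-linked libraries, 6 and 0 with the covariate, and 18 to 39 and 1 to 4 without single libraries (19 higher without APC-KI replicate 1, 20 without APC-KI replicate 2 and 18 without APC-WT replicate 2). Over all genes, 2388 were higher and 1459 lower, against 1978 and 2844 with library totals only (median log2 −0.132), 3369 and 2388 with DESeq2, 1195 and 465 with the block, 178 and 152 without Y-linked libraries, 220 and 195 with the covariate, and 788 to 2542 and 300 to 1595 without single libraries (973 higher without APC-KI replicate 1, 985 without APC-KI replicate 2, 1567 without APC-WT replicate 1 and 788 without APC-WT replicate 2).

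The Gsdmc sum (0.35) turned to −0.19 without APC-WT replicate 1 (−0.19 to 0.94 over single libraries left out), −0.40 in both Y-linked fits, −0.11 for Gsdmc2 alone and −0.16 for Gsdmc3 alone. None of these changes had passed, nor had those of the genes that turned sign. They were Gsdmc2 (0.57 with voom, 0.22 with the block, −0.64 to 0.45 without single libraries), Gsdmc3 (0.55, 0.10, and −0.73 to 0.61), Gsdmc4 (−0.08 in both Y-linked fits), Gsdma2 (−1.13 to 0.13 without single libraries, 0.43 in both Y-linked fits), Gsdme (−0.09 in both), Krt13 (−0.37 and −0.36) and Krt6a (0.18 with voom, −1.17 to 0.67 without single libraries). Gsdmc, Gsdma3, Pjvk and Il13 had too few counts to be tested.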

Other observations

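For genes of necroptosis, a lytic death route that runs beside pyroptosis, the median log2 change was 0.78. In APC-KI tumours 4 of 6 tested were higher, beside 12.5% of all genes. They were Cflar, which encodes the caspase-8 inhibitor FLIP (0.80, adjusted p = 0.00857), the kinase Ripk3 (0.93, adjusted p = 0.0135), the nucleic acid sensor Zbp1 (1.24, adjusted p = 0.045) and the membrane-breaking Mlkl (0.75, adjusted p = 0.0461, edgeR). Ripk3 stood at 123, 128 and 91.7 CPM in APC-KI and 60.5, 50.3 and 68.6 CPM in APC-WT tumours, without overlap. Mlkl stood at 45.1, 54.1 and 44.3 CPM in APC-KI and 20.4, 28.8 and 36.0 CPM in APC-WT tumours, also without overlap. All 4 genes lost their calls in the edgeR fit on the 4 libraries with 0 Y-linked counts.

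ESCRT genes, which reseal membranes pierced by gasdermin pores, were higher for 3 of 12 tested (25%, beside 12.5% of all genes), with a median log2 change of 0.17. The 3 were Chmp2b (0.40, adjusted p = 0.0247), Vps4a (0.36, adjusted p = 0.0391) and Chmp3 (0.29, adjusted p = 0.0449, edgeR). Among 9 genes of TGF-beta signalling 2 were called, near the 20.1% of all genes called in either direction. Tgfbr2, the receptor that has been linked to Gsdmc levels in mouse colon tumours, had a log2 change of 0.13 (edgeR adjusted p = 0.415). The receptor Tgfbr1 was higher (0.23, adjusted p = 0.0405, edgeR) but passed in 5 of 17 alternatives, and the inhibitor Smad7 was lower (−0.57, adjusted p = 0.0181, edgeR) and passed in 13 of 17. Chmp2b, Vps4a, Chmp3, Tgfbr1 and Smad7 lost their calls in the edgeR fit on the 4 libraries with 0 Y-linked counts.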
